A study of Mus musculus with 56 samples.

Results

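The comparison described here asks how much further transcript levels moved after an adeno-associated virus (AAV) injection in muscle heterozygous for a cleavable titin allele than in wild-type muscle, 7 days post injection (dpi). For every gene it is a double difference on the log2(value + 1) scale: heterozygous AAV minus heterozygous saline, less wild-type AAV minus wild-type saline. It uses 15 of the 56 RNA sequencing libraries of the series, all from the tibialis anterior muscle of the shin, and 13017 of the 14870 genes in the deposited table were tested. The groups were WT muscle given saline (NaCl, 3 libraries), WT muscle given AAV (4), HET mKO muscle given saline (4) and HET mKO muscle given AAV (4). The mKO allele is the titin mechanical knock-out, in which a cutting site for the plant virus protease TEV has been built into titin. The AAV in both genotypes carried TEV protease fused to green fluorescent protein. Wild-type muscle therefore received vector and protease without a site in titin, and heterozygous muscle held both a cleavable and an ordinary copy of the gene. The labels do not say whether samples are from separate animals, and p-values here measure the spread between samples, part of which may be technical.

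Titin spans the sarcomere from the Z-disc to the M-band, acts as its molecular spring, and holds binding sites for proteins that pass mechanical signals to the nucleus. Among these are the muscle ankyrin repeat proteins, which bind the elastic I-band region, and the RING-finger ligase MuRF1, which binds near the M-band. Skeletal muscle is also known to switch genes of the embryonic contractile apparatus back on during regeneration and after loss of innervation.

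Values are normalised read counts as deposited. A response, or a difference of responses, is given as a log2 value ± standard error (SE) from a limma fit across all genes, and called means a Benjamini-Hochberg adjusted p under 0.05. Higher and lower mean that the heterozygous response lay above or below the wild-type response. On this scale the pseudocount of 1 understates changes of low genes.

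Titin mRNA itself gave no call. Ttn (chr2:76703980-76982547, GRCm38, minus strand) stood at 10100 to 11100 in the 3 WT saline libraries, 9960 to 10800 in the 4 WT AAV libraries, 11400 to 12800 in HET saline and 9540 to 10200 in HET AAV. The double difference was -0.20 ± 0.19 (limma adjusted p = 0.488). The allele alters a protein site and the protease acts on protein, so the transcript does not check the genotype labels.

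The transgene checked the injection labels. It had 0 to 1 reads in each of the saline libraries. It stood at 249.1, 157.9, 227.4 and 323.6 in WT AAV libraries 1 to 4 and at 96.2, 56.9, 113.6 and 79.86 in HET AAV libraries 1 to 4. The groups did not overlap, and the heterozygous level was 2.76-fold lower, a log2 difference of -1.47 (exact two-sided permutation p = 0.0286, the smallest that 4 against 4 libraries allow). Without HET AAV library 2, the lowest of the 8, the difference was -1.28 (exact permutation p = 0.0571, 3 against 4 libraries). The groups still did not overlap. The responses were therefore not compared at equal transgene level, and its part in the double difference was not tested.

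The 15 libraries held 18.9 M to 27.1 M reads. The effective library size by which the authors scaled the reads was 1.01 to 1.11 times the read total in HET AAV libraries and 0.86 to 0.94 times in the other 11. The median double difference over all genes tested was -0.01.

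The response to AAV differed between heterozygous and wild-type muscle in 2626 of 13017 genes, 20.2% of those tested. It was higher in 1340 genes (10.3%) and lower in 1286 (9.88%), and 720 of the calls were at least 2-fold, 534 higher and 186 lower. Heterozygous muscle alone called 5259 genes between AAV and saline (40.4%, with 19.6% higher and 20.8% lower). Wild-type muscle called 0 (0.0%) with limma, with 210 genes at an unadjusted p under 0.05. On the recovered reads edgeR and limma voom also called 0 genes in wild-type muscle, and DESeq2 called 7. In plain counts of values, 1830 genes (14.1%) had all 4 HET AAV libraries above the other 11 libraries, and 1818 (14.0%) had all 4 below.

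Most called genes were also called in the 2 comparisons that involve heterozygous AAV muscle. Of the 1340 genes with a higher response, 1318 were also called higher in heterozygous AAV against saline muscle, and 1285 were called higher in heterozygous than wild-type AAV muscle. Over all genes the latter comparison called 40.2%, 19.1% higher and 21.0% lower. Their median log2 response was 0.794 in heterozygous and -0.0635 in wild-type muscle. Of the 1286 genes with a lower response, 1268 and 1212 were called lower in them, with median responses of -0.617 and 0.0296. The wild-type term was larger in size than the heterozygous term in 17 genes of each direction. These comparisons share libraries with the double difference and are its parts, not further evidence for it.

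**Figure D1:**
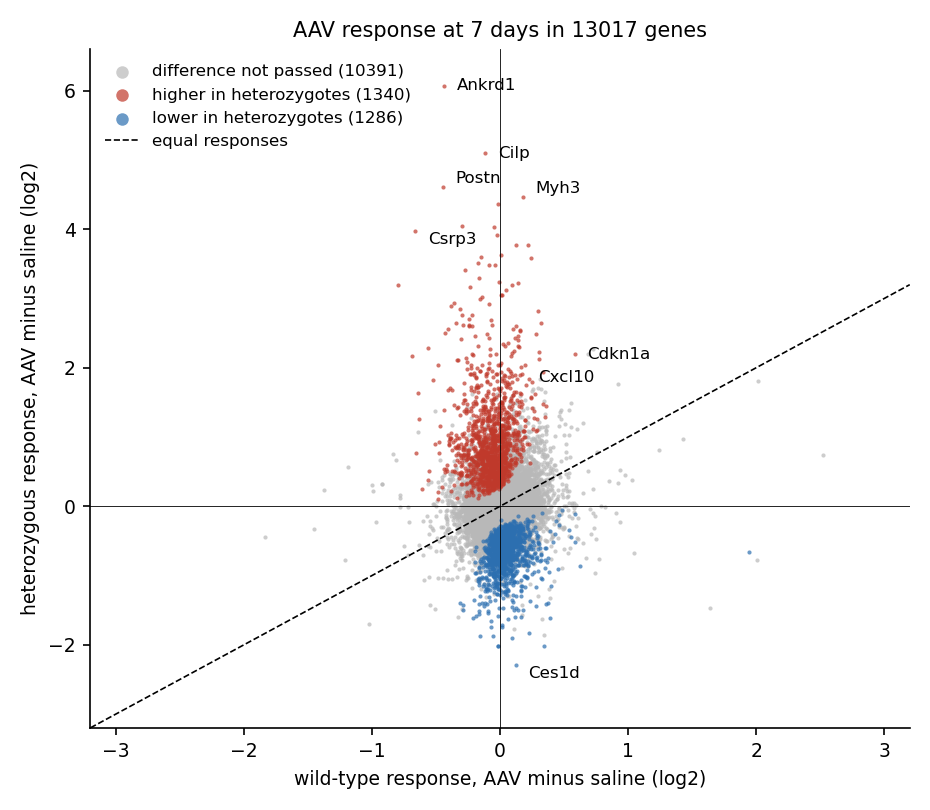
Each point is 1 of 13017 genes, with the wild-type AAV response at 7 dpi on the horizontal axis and the heterozygous response on the vertical axis, both as log2 change of value + 1. Red marks the 1340 genes called higher, blue the 1286 called lower and grey the rest, and the dashed line marks equal responses. The coloured genes spread along the vertical axis and stay near 0 on the horizontal axis.

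The largest rise was in Ankrd1 (chr19:36111961-36120099, GRCm38, minus strand), which encodes the cardiac ankyrin repeat protein that binds the I-band of titin. Its values were 12.9, 5.19 and 9.13 in WT saline, 3.67, 4.96, 13.3 and 5.27 in WT AAV, 8.3, 4.17, 4.41 and 6.54 in HET saline and 293, 490, 451 and 611 in HET AAV libraries. All 4 HET AAV libraries lay far above the other 11, which overlapped one another. The double difference was 6.51 ± 0.90 (adjusted p = 1.03e-06), a 90.84-fold larger ratio. Another large rise came in Eda2r (chrX:97333840-97377216, minus strand), a receptor of the tumour necrosis factor family that binds ectodysplasin A2 and is a known p53 target. Eda2r stood at 6.38 to 16.1 in the other 11 libraries and at 81.2, 117, 105 and 132 in HET AAV, with a double difference of 3.69 ± 0.36 (adjusted p = 1.82e-09).

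The proximal promoters of these 2 genes are printed because both genes are among the largest rises and both hold the letters of the MCAT element. That element, GGAATG on either strand, is the core bound by TEAD factors in muscle promoters. Sequences are from RefSeq (GRCm38.p6), the 250 bases before the annotated start, read 5′ to 3′ on the gene's strand, with MCAT letters in capitals.
Ankrd1, chr19:36119845-36120094, minus strand: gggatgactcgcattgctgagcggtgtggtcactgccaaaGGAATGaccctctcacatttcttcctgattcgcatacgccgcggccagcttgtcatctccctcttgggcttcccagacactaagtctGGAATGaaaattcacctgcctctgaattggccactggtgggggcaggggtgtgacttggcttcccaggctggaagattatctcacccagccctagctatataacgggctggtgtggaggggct
Eda2r, chrX:97377210-97377459, minus strand: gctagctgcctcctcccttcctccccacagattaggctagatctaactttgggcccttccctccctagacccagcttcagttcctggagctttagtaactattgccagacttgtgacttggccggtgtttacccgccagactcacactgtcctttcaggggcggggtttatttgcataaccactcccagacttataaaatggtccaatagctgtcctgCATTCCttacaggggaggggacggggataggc
Of the 15 genes with the largest rises, 13 had a promoter in the RefSeq table, 15 windows of 300 bases in all. GGAATG on either strand was found in 3 of these genes, Ankrd1, Eda2r and Mustn1, and in 14.7% of all 32851 mouse windows of that length. CAGCTG, an E-box bound by myogenic factors, was found in 1 gene, Cilp (16.3% of all windows), and TATAAA in 4 genes (13.6%). No motif contains another, and a match is a description of the window only.

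Transcripts of other proteins that bind titin or sit at its anchoring points were read as a list. In the list of titin-linked stretch and stress genes, 12 of 18 tested members had a higher response, 1 a lower response and 5 were not called. The median double difference was 1.51, and over all genes 10.3% were higher and 9.88% lower. The lower member was Trim55 at -0.64, which encodes a ligase related to MuRF1. Csrp3 (chr7:48830398-48848033, minus strand) encodes muscle LIM protein of the Z-disc. Csrp3 stood at 15.6 to 174 in WT saline, 15.8 to 93.9 in WT AAV and 30.7 to 203 in HET saline, and at 905, 1490, 1150 and 997 in HET AAV libraries. The other 11 libraries varied widely within each group, and the HET AAV values lay above all of them (4.63 ± 1.01, adjusted p = 0.000853).

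Ankrd2, a second ankyrin repeat protein of the titin I-band, stood at 431, 661, 622 and 396 in HET AAV libraries and at 18.7 to 184 in the other 11. Its double difference was 2.98 ± 0.83 (adjusted p = 0.00815), a call that was lost without WT saline library 1. Myom3 (chr4:135759715-135815564), which encodes an M-band protein that links myosin filaments, rose from 14.8 to 63.5 in the other 11 libraries to 360, 499, 440 and 457 (3.74 ± 0.57, adjusted p = 5.75e-06). Xirp1 and Xirp2 encode Xin proteins, which bind actin at sites of remodelling and repair. Xirp2 stood at 2330 to 3150 in the other 11 libraries and at 8070, 10000, 8290 and 10300 in HET AAV, a double difference of 1.75 ± 0.23 (adjusted p = 4.4e-07). Xirp1 gave 2.99 ± 0.61 (adjusted p = 0.000441) and Pdlim3, a Z-disc adaptor that binds alpha-actinin, 2.23 ± 0.26 (adjusted p = 5.72e-08).

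Structural genes of the Z-disc, thin filament and M-band outside that list divided. Of 20, 6 were higher and 2 lower, against 10.3% and 9.88% over all genes, and the list median was 0.09. Either lower call was lost on leaving out 1 of several libraries. Des, which encodes desmin, the intermediate filament that ties Z-discs together, had 5160 to 6360 in HET AAV libraries against 2280 to 2980 in the other 11 (1.22 ± 0.17, adjusted p = 7.8e-07). Tubb6, a beta-tubulin known from regenerating muscle, rose from 9.08 to 15.4 in the other libraries to 123, 159, 145 and 142 (3.57 ± 0.52, adjusted p = 3.43e-06). Krt18, a keratin of simple epithelia, was at 0.0234 to 0.341 in the other 11 libraries, values of a few reads, and at 27.9, 11.8, 19.3 and 35.8 in HET AAV. Krt18 gave 4.38 ± 0.66 (adjusted p = 5.42e-06), and it was not called by edgeR or limma voom on the recovered reads.

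**Figure D2:**
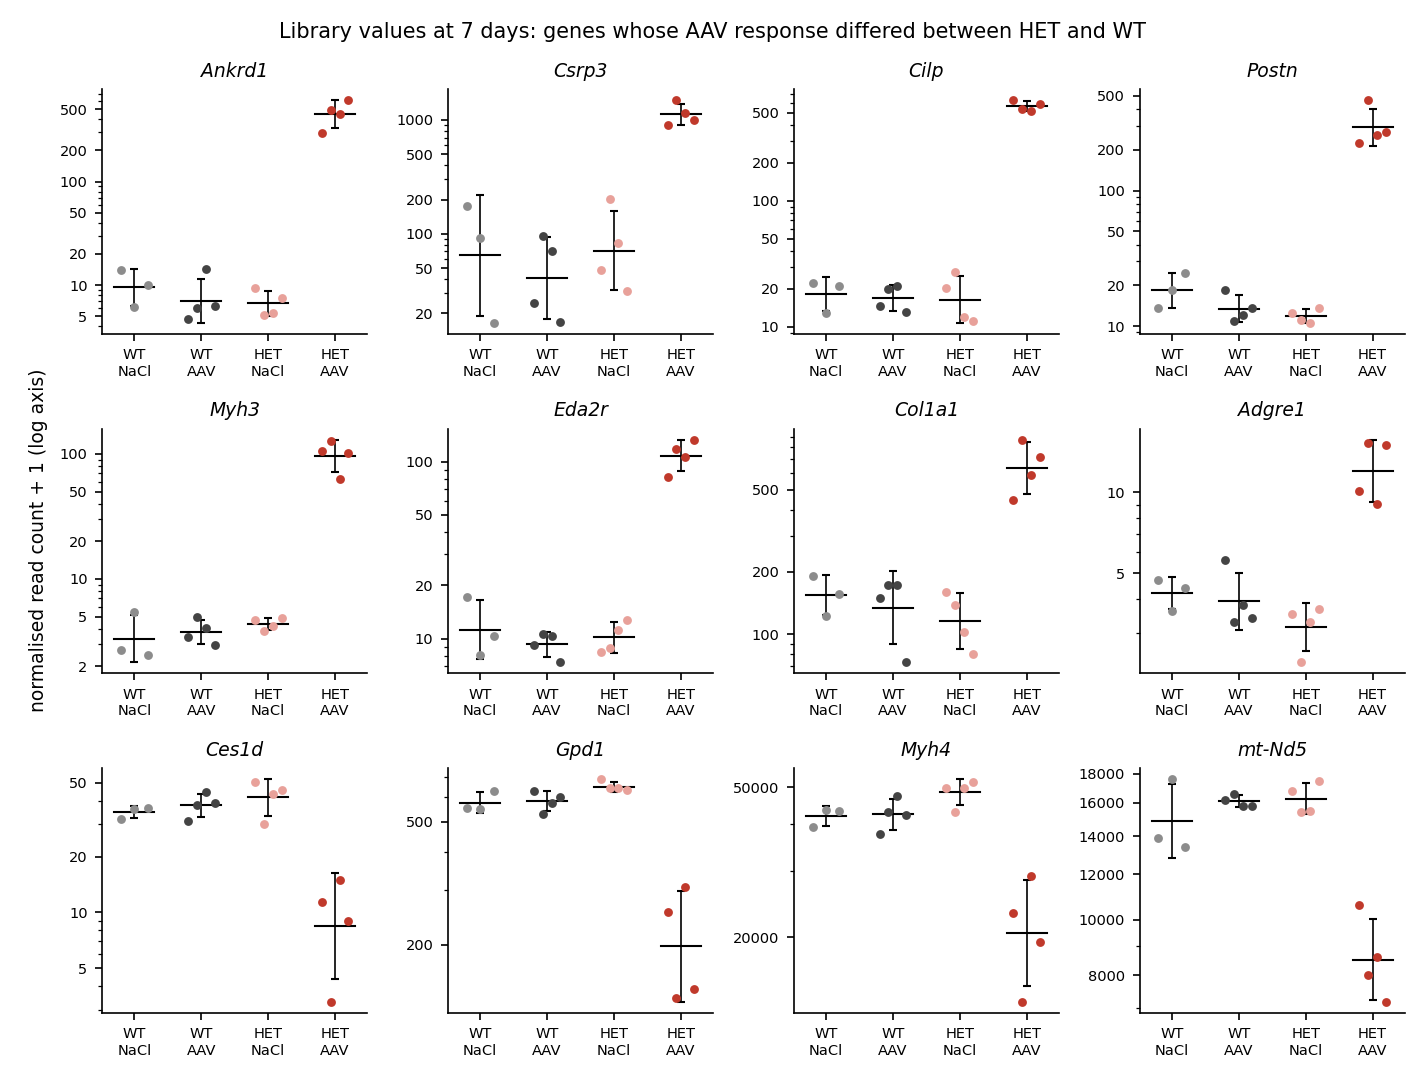
Normalised read count + 1 on a log axis for 12 genes, 1 point per library, in the 4 groups WT saline (3), WT AAV (4), HET saline (4) and HET AAV (4), with bars at the mean of log2 values and error bars of 1 SD on the log scale. In Ankrd1, Cilp, Postn and Eda2r the 4 HET AAV points sit apart above the other 11, and in Gpd1, Ces1d, Myh4 and mt-Nd5 they sit below.

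Developmental contractile genes rose. Of 8 tested members of the embryonic and regeneration contractile list, 6 were higher and 0 lower, against 10.3% and 9.88% over all genes. The list median was 2.95 against -0.01 over all genes. Myh3 (chr11:67078300-67102291), the embryonic myosin heavy chain, had 1.47 to 4.44 in the other 11 libraries and 105, 127, 62.1 and 100 in HET AAV (4.28 ± 0.86, adjusted p = 0.000352). Myh8 (chr11:67277124-67308634), the perinatal heavy chain, had 2.22 to 8.41 in the other 11 and 87.9, 148, 84.2 and 107 in HET AAV (4.35 ± 0.78, adjusted p = 8.79e-05). Both myosins therefore had HET AAV libraries entirely above the rest.

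Sln encodes sarcolipin, a small inhibitor of the sarcoplasmic reticulum calcium pump. It stood at 0.458 to 1.69 in the other 11 libraries and at 10.5, 29.7, 12.2 and 20.6 in HET AAV (3.53 ± 0.67, adjusted p = 0.000167). Tnnt2, cardiac troponin T, which fetal skeletal muscle also uses, had 18.7, 31.2, 19 and 24.7 in HET AAV (2.82 ± 0.62, adjusted p = 0.000979). The 2 members that did not pass were Actc1 at -0.24 and Chrna1 at 1.11. Under limma voom on the recovered reads 1 of the 8 members was called, and the calls of Myh3, Sln and Tnnt2 were among those lost. Reads of neighbouring myosin heavy chain genes can be divided between them by RSEM, so their separate values are uncertain.

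Slow fibre genes were higher in 5 of 11 tested members (Tnni1, Tnnt1, Atp2a2, Myoz2 and Casq2) and lower in 0. The other 6 were not called, and over all genes 10.3% were higher and 9.88% lower. Tnni1, slow troponin I, stood at 31.4, 31.8, 26.3 and 32.1 in HET AAV libraries and at 1.43 to 8.46 in the other 11 (3.28 ± 0.95, adjusted p = 0.0115). Casq2, the calcium buffer of slow and cardiac sarcoplasmic reticulum, had 160 to 204 in HET AAV and 49 to 86.6 elsewhere (1.69 ± 0.34, adjusted p = 0.000422). The count of 5 fell to 3 under limma voom and without HET saline library 4, and to 2 without WT saline library 2. Without that last library 1 member was called lower.

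Genes of innervation and of myogenic differentiation gave calls in the upward direction. Of 15 tested denervation and neuromuscular junction genes, 5 were higher and 0 lower (median 0.90), against 10.3% and 9.88% over all genes. Ncam1, the neural cell adhesion molecule that spreads over denervated and regenerating fibres, stood at 5.06 to 8.25 in the other 11 libraries and at 64.4, 65.5, 62.7 and 79 in HET AAV (3.03 ± 0.45, adjusted p = 4.31e-06). Chrnb1, the beta subunit of the muscle acetylcholine receptor, had 70.2 to 79.6 in HET AAV against 24.8 to 50.1 (1.01 ± 0.21, adjusted p = 0.000527). The embryonic gamma subunit Chrng gave 2.04 and the transcription factor Runx1 2.39 ± 0.46 (adjusted p = 0.000196). Limma voom called 3 of these 15 members, Runx1 not among them, and a fit of the 4 groups alone called 9.

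Among 11 tested satellite cell and myogenic genes, 6 were higher and 0 lower (median 0.85), against 10.3% and 9.88% over all genes. This count overlaps with others, as Myog is also in the denervation list and Des also in the structural list. Myog, the differentiation factor myogenin, had 31, 45.8, 36.6 and 50.2 in HET AAV libraries against 1.43 to 6.84 (3.28 ± 0.61, adjusted p = 0.000139). Mymk encodes myomaker, the membrane protein needed for myoblast fusion. Its values were 10.1, 14.7, 9.89 and 10.7 in HET AAV and 0.0247 to 0.55 in the other libraries (3.46 ± 0.72, adjusted p = 0.000556), a call lost under limma voom. Pax7, the satellite cell marker, and Myod1, the determination factor, were not called, at 0.30 and -0.09. Of 15 proliferation genes 5 were higher, against the same 10.3%. That count ran from 0 under limma voom to 12 in a fit of the 4 groups alone.

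Several of the largest rises belonged to no muscle structure. Mustn1, a small nuclear protein of muscle and cartilage, had 700, 998, 926 and 987 in HET AAV libraries and 27.2 to 127 in the other 11 (4.09 ± 0.55, adjusted p = 6.47e-07). Cpne2, a calcium-dependent phospholipid-binding protein, had 59.6, 63, 61.3 and 73.7 against 2.65 to 4.42 (3.94 ± 0.45, adjusted p = 2.78e-08). Ttc9 had 75.6, 106, 87.9 and 97.3 against 2.82 to 10.2 (3.66 ± 0.45, adjusted p = 1.74e-07). In all 3 genes no HET AAV value came near the range of the other libraries. Rrad, a small GTPase that inhibits calcium channels, gave 3.69 ± 0.70 (adjusted p = 0.000185) from 8.78, 22.1, 40 and 22.1 in HET AAV and 0.262 to 1.71 elsewhere, a call lost under limma voom.

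Tnfrsf12a, the receptor for the cytokine TWEAK, was an exception to this separation among the largest rises. Its values were 53.6, 14.4 and 2.68 in WT saline, 5.45, 15.6, 15 and 1.89 in WT AAV, 3.78, 5.11, 3.31 and 2.87 in HET saline and 23.1, 62.8, 57.8 and 37.4 in HET AAV. WT saline library 1 lay inside the HET AAV range. The double difference was 4.00 ± 0.89 (adjusted p = 0.00108), and the saline difference between the genotypes, -1.63, was not called (adjusted p = 0.513).

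Extracellular matrix genes had the highest share of higher calls among the 34 lists. Of 24 tested matrix genes 20 were higher and 0 lower, with a median of 1.74, against 10.3% higher over all genes. Col4a1, Thbs1, Timp1 and Ccn2 did not pass. Cilp (chr9:65265180-65280605), which is not in that list, encodes a cartilage and fibroblast matrix protein that binds TGF-beta. It stood at 10.2 to 26 in the other 11 libraries and at 628, 538, 512 and 586 in HET AAV. Its double difference was 5.21 ± 0.58 (adjusted p = 1.61e-08), a 37.12-fold larger ratio.

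Postn (chr3:54361109-54391037) encodes periostin, a matricellular protein of activated fibroblasts. It had 9.61 to 23.5 in the other 11 libraries and 224, 464, 256 and 270 in HET AAV (5.06 ± 0.55, adjusted p = 1.1e-08). Col1a1, the main chain of type I collagen, had 444, 872, 586 and 717 against 72.2 to 190 (2.66 ± 0.50, adjusted p = 0.000139). Of 10 markers of fibro-adipogenic progenitors 3 were higher (Pdgfra, Lum and Mfap5), 0 lower and 7 not called, with a list median of 0.35. Over all genes 10.3% were higher and 9.88% lower. The Pdgfra call was lost without HET AAV library 4, HET saline library 2, WT AAV library 4 or WT saline library 2. Their summed level was 882 to 989 in HET AAV against 719 to 967 in the other groups. The range of that sum overlapped between HET AAV and both WT AAV and HET saline. In whole muscle, fewer cells of a type and less RNA per cell cannot be told apart, and this holds for every cell type marker below.

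Macrophage markers were higher in 10 of 20 tested members and lower in 0 (median 1.52), against 10.3% and 9.88% over all genes. Their summed level was 75.9 to 119 in WT saline, 75.2 to 160 in WT AAV, 69.8 to 123 in HET saline and 271 to 511 in HET AAV. Adgre1, which encodes the macrophage surface protein F4/80, had 9.13, 14.2, 8.06 and 14 in HET AAV and 1.34 to 4.6 in the other 11 libraries (2.03 ± 0.53, adjusted p = 0.00461). Lgals3, galectin-3, which macrophages in injured muscle express strongly, had 21.4, 47.6, 30.6 and 33.4 against 1.21 to 3.11 (3.26 ± 0.69, adjusted p = 0.000689). Limma voom called 3 of the 20 and a fit of the 4 groups alone called 16; Adgre1 and Lgals3 were not called by voom. The part of these cells in the matrix and stress results was not tested.

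Few lymphocyte and interferon genes were called. Of 9 T and natural killer cell markers 0 were called by limma, edgeR, DESeq2 or voom, and 0 had an unadjusted p under 0.05. Their summed level was 1.00 to 1.42 in WT saline, 0.85 to 3.16 in WT AAV, 1.23 to 2.79 in HET saline and 2.28 to 5.02 in HET AAV. Cd8a, the co-receptor of cytotoxic T cells, was at or below 0.491 in all 15 libraries (double difference -0.11 ± 0.50, adjusted p = 0.905). Of 23 interferon response genes 1 was higher and 0 lower, against 10.3% and 9.88% over all genes. That gene was Cxcl10, a chemokine, with 2.35, 3.71, 4.62 and 8.39 in HET AAV and 0.0233 to 0.989 elsewhere (1.84 ± 0.55, adjusted p = 0.0139), a call lost under edgeR, DESeq2, limma voom and a pseudocount of 4.

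Isg15, a ubiquitin-like interferon product, was not called (0.58 ± 0.54, adjusted p = 0.484). Antigen presentation genes were higher in 2 of 16 (H2-Aa and H2-Eb1), a share near the 10.3% over all genes. The count lay between 0 and 6 over the alternatives and was 0 without WT saline library 1, and the H2-Aa call was lost with edgeR, DESeq2 and voom.

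**Figure D3:**
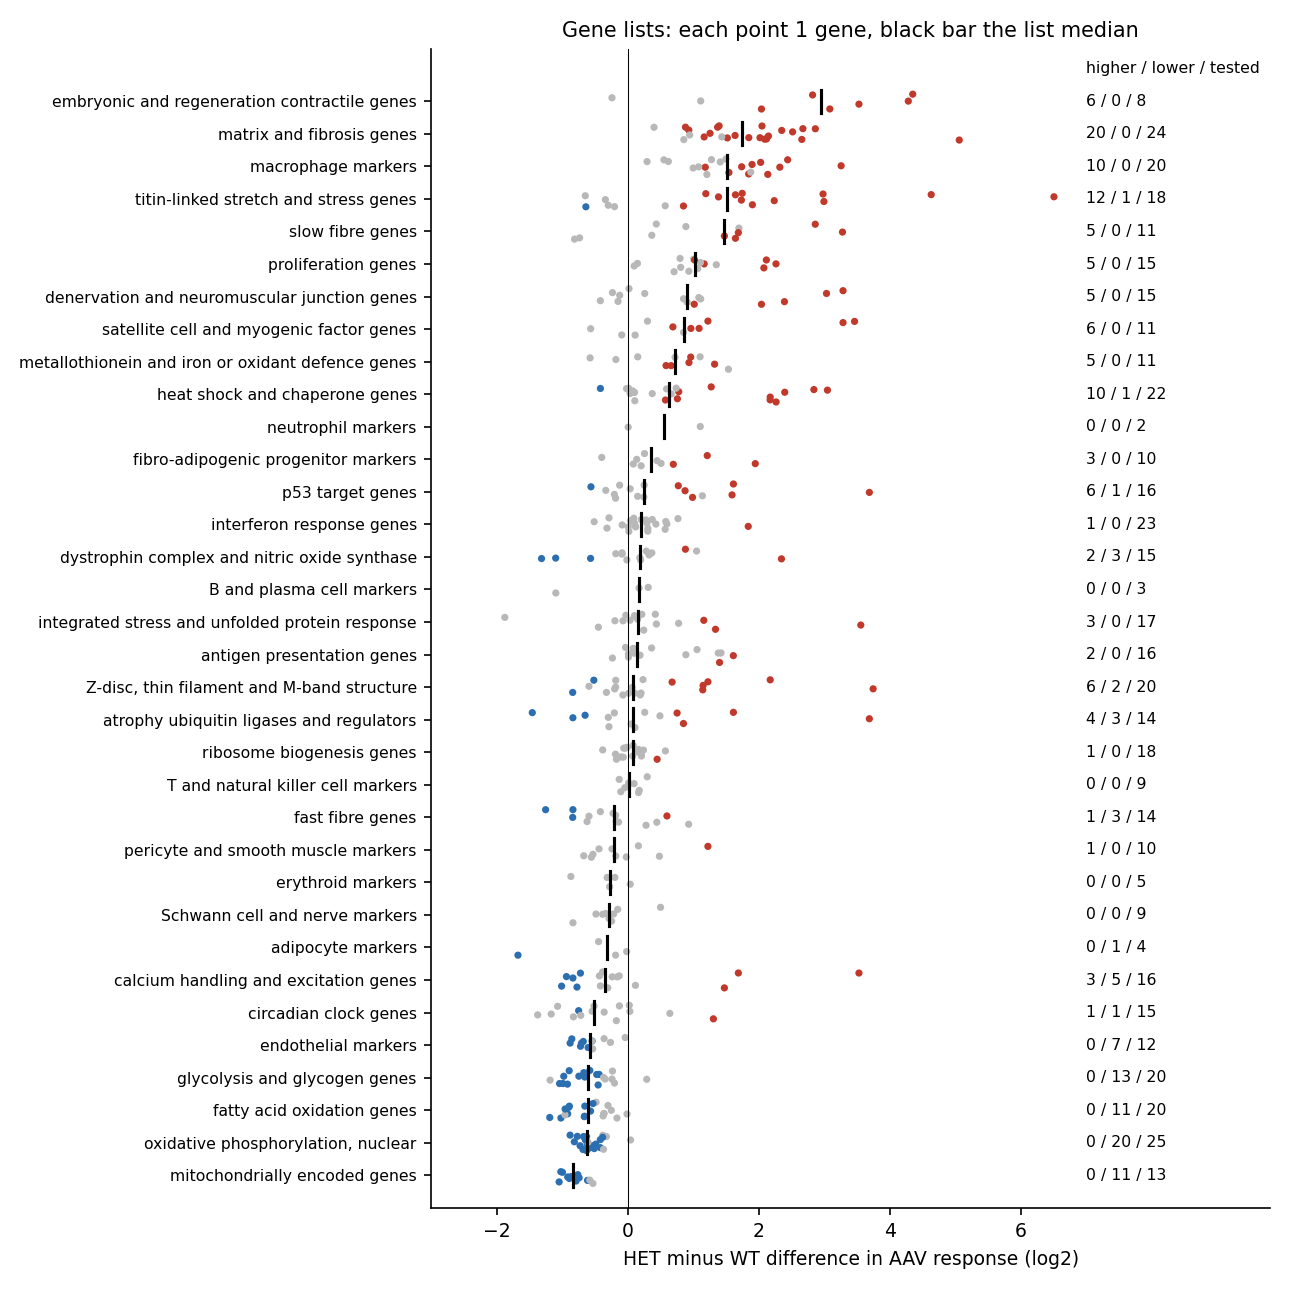
Double difference in log2 for each tested member of 34 gene lists, 1 point per gene, with a black bar at the list's median and the numbers called higher, lower and tested at the right. Matrix genes reach 20 higher of 24 and oxidative phosphorylation genes 20 lower of 25, with the list medians at 1.74 and -0.62.

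Among the falls, the lists of energy metabolism are described first. Of 25 tested nuclear genes of oxidative phosphorylation, 20 were lower and 0 higher (median -0.62), against 9.88% lower over all genes. Sdha, the flavoprotein of succinate dehydrogenase, had 643, 506, 616 and 517 in HET AAV libraries and 1000 to 1120 in the other 11 (-0.88 ± 0.16, adjusted p = 9.39e-05). The other 11 libraries spanned a narrow range here, and no HET AAV library reached it. Ppargc1a, the coactivator PGC-1alpha that drives mitochondrial biogenesis, had 16.9 to 27.8 against 29.9 to 52.2 (-0.96 ± 0.27, adjusted p = 0.00943).

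Genes encoded in the mitochondrial genome were lower in 11 of 13 tested members (median -0.85), against 9.88% over all genes. For mt-Nd5, a subunit of complex I, the values were 10600, 8000, 8600 and 7190 in HET AAV and 13400 to 17600 in the other 11 (-1.05 ± 0.26, adjusted p = 0.00287). After quantile normalization, which forces all libraries onto the same distribution, 2 of the 13 were called and the median was -0.34. Fatty acid oxidation genes were lower in 11 of 20 (median -0.61), against the same 9.88%. Cpt1b, the muscle carnitine palmitoyltransferase that admits long-chain fatty acids to mitochondria, had 175, 115, 147 and 119 against 287 to 366 (-1.02 ± 0.24, adjusted p = 0.00172).

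Glycolysis and glycogen genes were lower in 13 of 20 (median -0.61), against 9.88% over all genes. Pygm, muscle glycogen phosphorylase, had 3490, 2430, 4410 and 3070 in HET AAV and 5570 to 6900 in the other 11 (-0.98 ± 0.26, adjusted p = 0.00566). The count of 13 fell to 7 without HET AAV library 2, to 6 without HET AAV library 4 and to 7 without WT saline library 2. Gpd1 (chr15:99717515-99725005), cytosolic glycerol-3-phosphate dehydrogenase, was among the largest falls. It stood at 531 to 687 in the other 11 libraries and at 255, 134, 308 and 143 in HET AAV (-1.73 ± 0.31, adjusted p = 9.16e-05).

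Ces1d, Plin4 and G0s2, which act in lipid storage and breakdown, were among the 15 largest falls and are set together here after their values were seen. Ces1d (chr8:93166068-93197838, minus strand), a carboxylesterase that hydrolyses triglyceride, had the largest fall, with 10.4, 2.31, 13.9 and 8.03 in HET AAV and 29 to 49.6 elsewhere (-2.42 ± 0.56, adjusted p = 0.00168). HET AAV library 2 was the lowest of the 15. Plin4, a lipid droplet coat protein, had 128, 62.3, 124 and 72.1 against 257 to 433 (-1.68 ± 0.50, adjusted p = 0.0125). G0s2, the inhibitor of adipose triglyceride lipase, gave -2.0 ± 0.61 (adjusted p = 0.0146), but WT saline library 3 at 6.42 and WT AAV library 4 at 7.54 overlapped the HET AAV range of 4.09 to 11.3. The G0s2 call was lost without WT saline library 3.

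The 15 largest falls also held Fam57b (-1.82), Cntfr (-1.77), Mdga1 (-1.76), Vwa3b (-1.76), Magix (-1.72) and Alpl (-1.64), with Lrtm1, Klhl33, Tfrc, Kcng4, Gpd1 and Mylk4. Lrtm1, a transmembrane leucine-rich repeat protein, had 81, 40.1, 75 and 40.3 in HET AAV against 138 to 225 (-2.06 ± 0.36, adjusted p = 5.36e-05). Klhl33, a kelch protein, gave -2.0 ± 0.47 (adjusted p = 0.00207) and Kcng4, a modifier subunit of voltage-gated potassium channels, -1.69 ± 0.44 (adjusted p = 0.00515). Tfrc, the transferrin receptor that takes up iron, had 135, 88.7, 75.7 and 42.1 against 136 to 445 (-1.75 ± 0.45, adjusted p = 0.00402). HET saline library 4 lay at the edge of the HET AAV range for Tfrc, and the rest lay above it.

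Of 14 fast fibre genes 3 were lower (Myh4, Atp2a1 and Mybpc2) and 1 was higher (Mylpf at 0.60). Over all genes 9.88% were lower and 10.3% higher. Myh4, the fast 2B myosin heavy chain, had 23200, 13500, 29000 and 19400 in HET AAV and 37500 to 51600 in the other 11 (-1.26 ± 0.34, adjusted p = 0.00672). Atp2a1, the fast calcium pump, had 13800 to 23300 against 28900 to 37300 (-0.84 ± 0.26, adjusted p = 0.0191). The Mybpc2 call was lost without HET AAV library 2, HET saline library 1 or 4, WT AAV library 3 or 4, or WT saline library 1 or 2, and that of Mylpf without WT saline library 3 or after quantile normalization. The calls of Myh4 and Atp2a1 were lost after quantile normalization, and Atp2a1 also without HET AAV library 2 or WT saline library 1, each of which left 1 of the 14 members lower. Myh4 was present at high level in all 15 libraries, as the labelled muscle requires.

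Calcium handling and excitability genes divided, with Atp2a2, Sln and Casq2 higher and Atp2a1, Jph2, Scn4a, Clcn1 and Kcna7 lower among 16 tested. These were 3 higher and 5 lower, against 10.3% and 9.88% over all genes. Over the alternatives the higher count lay between 2 and 3 and the lower count between 4 and 7. In the list of the dystrophin complex and nitric oxide synthase 2 of 15 were higher and 3 lower, against 10.3% and 9.88% over all genes. Without WT saline library 3 the higher count was 4. Nos1, neuronal nitric oxide synthase at the fibre membrane, had 77.1, 48.3, 79.9 and 43.5 in HET AAV and 152 to 224 in the other 11 (-1.32 ± 0.31, adjusted p = 0.00221). Sntb1, the beta-1 syntrophin that binds dystrophin, rose from 3.81 to 8.14 in the other libraries to 19.3, 32.5, 24.1 and 23.6 (2.34 ± 0.44, adjusted p = 0.000174). Dysf, the membrane repair protein dysferlin, gave 0.88, and the water channel gene Aqp4 gave -1.10.

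Endothelial markers were lower in 7 of 12 (median -0.58). Their summed level was 347 to 426 in HET AAV, 575 to 597 in HET saline, 631 to 686 in WT AAV and 623 to 670 in WT saline. Cdh5, the cadherin of endothelial junctions, had 61.9 to 73.5 in HET AAV against 104 to 132 (-0.68 ± 0.21, adjusted p = 0.0188). The count of 7 fell to 4 without HET AAV library 2, WT saline library 1 or WT saline library 3. Schwann cell markers (0 of 9) and erythroid markers (0 of 5) gave no call with limma, edgeR, DESeq2 or voom, and 0 members of either list had an unadjusted limma p under 0.05. Of 10 pericyte and smooth muscle markers 1 was higher (Des, which muscle fibres also express), and of 4 adipocyte markers 1 was lower (Plin4). Over all genes 10.3% were higher and 9.88% lower. The 2 neutrophil markers tested gave 0 calls with limma, 0 at an unadjusted p under 0.05, and 1 call with edgeR and with DESeq2.

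Protein-quality genes were mostly higher where they were called. Of 22 tested heat shock and chaperone genes 10 were higher and 1, the mitochondrial chaperone Hspd1, was lower (median 0.63). Over all genes these shares were 10.3% and 9.88%, and the lower call was lost on leaving out any of several libraries. The small heat shock proteins, which stabilise desmin, actin and titin under load, led this list. Hspb1 had 376, 673, 766 and 693 in HET AAV against 69 to 108 (3.05 ± 0.36, adjusted p = 8.1e-08). Hspb8 had 832, 1220, 1060 and 1170 against 207 to 264 (2.26 ± 0.23, adjusted p = 4.14e-09). Both stood entirely above the other 11 libraries.

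Hspb7 gave 2.84 ± 0.55 (adjusted p = 0.00023), and Cryab, alpha-B crystallin, 2.17 ± 0.42 (adjusted p = 0.000243). The Cryab values were 2050, 2860, 2470 and 2000 in HET AAV, and 1020 in HET saline library 2 against 398 to 597 in the remaining 10. Values of Hspa1a and Hspa1b, which are near-identical, are uncertain because RSEM divides shared reads between them.

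Other stress genes passed only in part. Atf3, an early stress transcription factor, had 31.3, 72.1, 74.2 and 69.6 in HET AAV against 1.14 to 8.37 (3.56 ± 0.72, adjusted p = 0.000353). Of 17 integrated stress and unfolded protein response genes 3 were higher (Atf3, Sdf2l1 at 1.16 and Psat1 at 1.34), against 10.3% over all genes. The Psat1 call was lost under several alternatives. Of 16 p53 target genes 6 were higher and 1 (Ccng1) lower, against 10.3% and 9.88% over all genes. Of 11 metallothionein, iron and oxidant defence genes 5 were higher (Gclc, Gclm, Srxn1, Ftl1 and Gsr), against the same 10.3%. That count was 3 after quantile normalization and without any of several single libraries.

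The muscle atrophy list did not move as a block. Of 14 tested members 4 were higher (Trim63, Fbxo40, Cdkn1a and Eda2r) and 3 lower (Fbxo31, Klhl38 and Foxo4). Over all genes these shares were 10.3% and 9.88%. Trim63, which encodes MuRF1, stood at 106 to 172 in the other 11 libraries and at 189, 193, 230 and 271 in HET AAV (0.85 ± 0.24, adjusted p = 0.0101). Fbxo32, which encodes the second classical atrophy ligase atrogin-1, had 112 to 197 in HET AAV, 146 to 270 in HET saline and 191 to 400 in both wild-type groups. The Fbxo32 double difference of -0.29 did not pass (adjusted p = 0.662).

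In 117 of the 2626 called genes the larger part of the double difference lay between the saline groups and not between the AAV groups. The saline groups differed in 26 genes (0.2% of those tested), 17 higher (0.131%) and 9 lower (0.0691%) in heterozygous muscle. Without WT saline library 1 or 2 this count was 0, and without WT saline library 3 it was 71. Cdkn1a, the cell cycle inhibitor p21, is such a gene. Its values were 50, 37.6 and 16.4 in WT saline, 33.5, 53.6, 61.6 and 46.3 in WT AAV, 12.2, 8.78, 10.5 and 11.2 in HET saline and 44.8, 47, 57.4 and 60.7 in HET AAV. The HET AAV libraries overlapped those of both wild-type groups, and the HET saline libraries lay below all others. The double difference of 1.61 ± 0.42 (adjusted p = 0.00485) was thus made of a saline difference of -1.48 (adjusted p = 0.03) and an AAV difference of 0.13.

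Mylk4, a kinase of the myosin light chain kinase family, showed the reverse arrangement. It had 2520 to 2910 in HET saline, 556, 719 and 1620 in WT saline, 733 to 1650 in WT AAV and 737 to 1340 in HET AAV. Its double difference of -1.68 ± 0.50 (adjusted p = 0.0138) came with a saline difference of 1.66 (adjusted p = 0.0421) and an AAV difference of -0.02. The interaction call of Mylk4 was lost without WT saline library 1.

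Circadian clock genes were among those that differed in saline, with 4 of 15 higher and 2 lower in heterozygous muscle. Over all genes these saline shares were 0.131% and 0.0691%. All saline calls were lost without WT saline library 1 or 2. In the double difference 1 of 15 (Arntl) was higher and 1 (Nr1d2) lower, against 10.3% and 9.88% over all genes. Without WT saline library 3 the lower count was 7. Arntl, the clock activator BMAL1, had 30.4, 24.8 and 8.8 in WT saline, 13.4, 21.7, 22.4 and 8.18 in WT AAV, 3.02, 4.9, 5.32 and 4.61 in HET saline and 6.93, 10.7, 10.6 and 12 in HET AAV. The saline difference was -1.89 (adjusted p = 0.000876), and the double difference was 1.31 ± 0.40 (adjusted p = 0.017). Hlf, a clock-controlled transcription factor, ran the other way, with 5.9, 8.23 and 22.5 in WT saline and 26.6 to 29 in HET saline, a saline difference of 1.33 (adjusted p = 0.0493) and a double difference of -1.07 that did not pass (adjusted p = 0.0591). The Hlf double difference was called without WT saline library 3 (-1.59), without HET AAV library 1 or WT AAV library 2, under limma voom and with a pseudocount of 4. Of the wild-type libraries, WT saline library 3 and WT AAV library 4 lay closest to heterozygous saline muscle in both genes. The double difference of Arntl was not called without WT AAV library 4, WT saline library 1 or WT saline library 2. The labels used here give no time of dissection, and its part in these values was not tested.

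**Figure D4:**
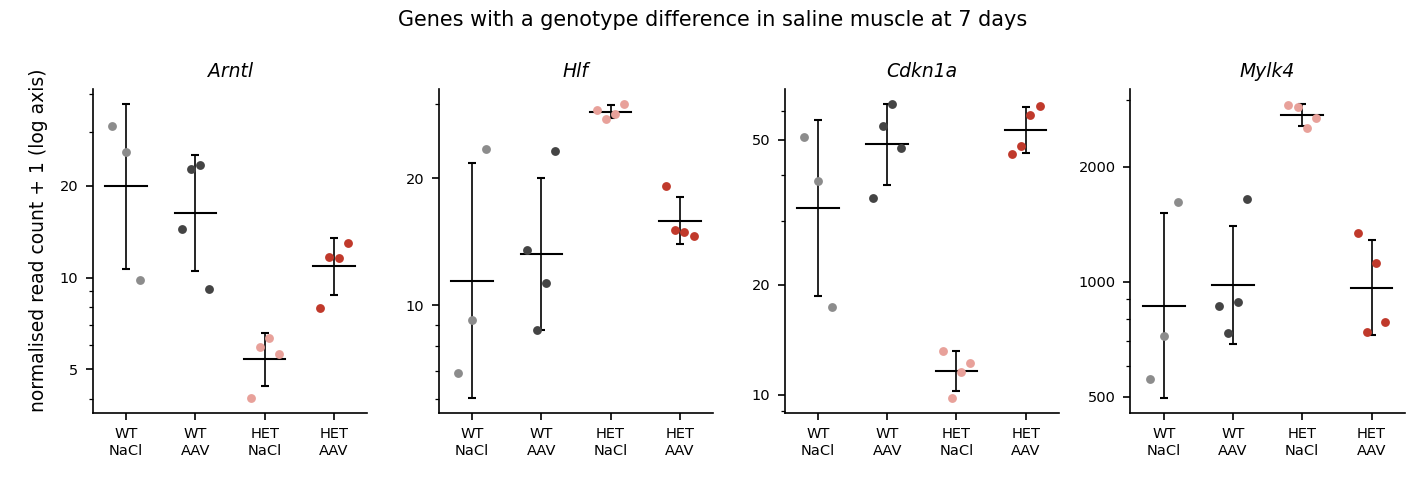
Normalised read count + 1 on a log axis for Arntl, Hlf, Cdkn1a and Mylk4 in the 4 groups at 7 dpi, 1 point per library, with bars at the mean of log2 values and error bars of 1 SD on the log scale. In Cdkn1a and Arntl the HET saline libraries lie lowest, and in Mylk4 they lie highest, so the saline groups carry much of the double difference in these genes.

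Homozygous mKO muscle at 7 dpi (4 saline and 5 AAV libraries) has both titin copies cleavable, and its own AAV response called 43.1% of the genes (20.6% higher, 22.5% lower). Of 13017 genes 422 (3.24%) differed between the homozygous and heterozygous responses, 91 higher (0.699%) and 331 lower (2.54%). Without homozygous saline library 1 the count was 278. The effective library size in homozygous AAV muscle was 1.16 to 1.28 times the read total. Homozygous AAV library 2 held 6.9 M reads, the others of its group 19.7 M to 24.3 M, and without library 2 the count was 414. This comparison shares the heterozygous libraries with the one above, so the values are given side by side only. Of the 331 lower genes the homozygous minus heterozygous difference was negative between AAV muscles in 306 and positive between saline muscles in 317, signs that the choice of genes favours. The median saline difference was 0.39 and the median AAV difference -0.39, and the saline difference was the larger in 172 genes.

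Cilp had 491, 501, 733 and 577 in homozygous saline libraries and 403 to 959 in homozygous AAV. In heterozygous muscle it had 10.2 to 26 in saline and 512 to 628 in AAV libraries. Its homozygous minus heterozygous difference was 5.11 between saline muscles and 0.38, not negative, between AAV muscles. Homozygous saline muscle was already at the level of heterozygous AAV muscle, and the homozygous response was lower by 4.73 on the log2 scale (-4.73, adjusted p = 1.58e-07). Eda2r had 48.6 to 121 in homozygous saline and 67.5 to 113 in homozygous AAV, a difference of -3.18 (adjusted p = 2.56e-08). Myom3 had 124 to 282 in homozygous saline and 159 to 366 in homozygous AAV (-3.27, adjusted p = 8.97e-05).

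Among titin-linked stress genes 8 of the 18 (Ankrd2, Csrp3, Xirp1, Xirp2, Fhl1, Flnc, Nrap and Pdlim3) had a lower homozygous response, against 2.54% over all genes. The other 10 were not called, among them Ankrd1 (-2.23, limma adjusted p = 0.16). Ankrd1 had 16.3 to 92.7 in homozygous saline and 356 to 1040 in homozygous AAV, against 293 to 611 in HET AAV. Its homozygous minus heterozygous difference was 2.5 between saline muscles and 0.27 between AAV muscles. Csrp3 had 984, 139, 344 and 229 in homozygous saline and 189 to 412 in homozygous AAV, so that AAV levels lay below the heterozygous range of 905 to 1490 (-4.25, adjusted p = 0.00403). Xirp2 had 2860 to 4210 in homozygous saline and 3380 to 4460 in homozygous AAV against 8070 to 10300 in HET AAV (-1.68, adjusted p = 1.19e-06). Hspb1 had 534, 135, 195 and 185 in homozygous saline and 243 to 410 in homozygous AAV (-2.64, adjusted p = 1.3e-06). Homozygous saline library 1 was the highest of its group in Csrp3, Xirp2 and Hspb1.

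Genes of the matrix list and developmental myosin genes gave other values. Postn had 12.8 to 21.4 in homozygous saline and 223 to 408 in homozygous AAV, and its difference between the responses was -0.43 (adjusted p = 0.8). Col1a1 gave -0.05, and limma called 0 of the 24 matrix genes between the responses, with 2 at an unadjusted p under 0.05. Cilp is outside that list, and its response did differ (-4.73, limma adjusted p = 1.58e-07). Myh8 had 2.36 to 11.1 and 98 to 229, a difference of 0.50 (adjusted p = 0.853). A difference that misses the threshold does not show equal responses. The transgene stood at 14.32 to 29.0 in homozygous AAV libraries, below both other genotypes.

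**Figure D5:**
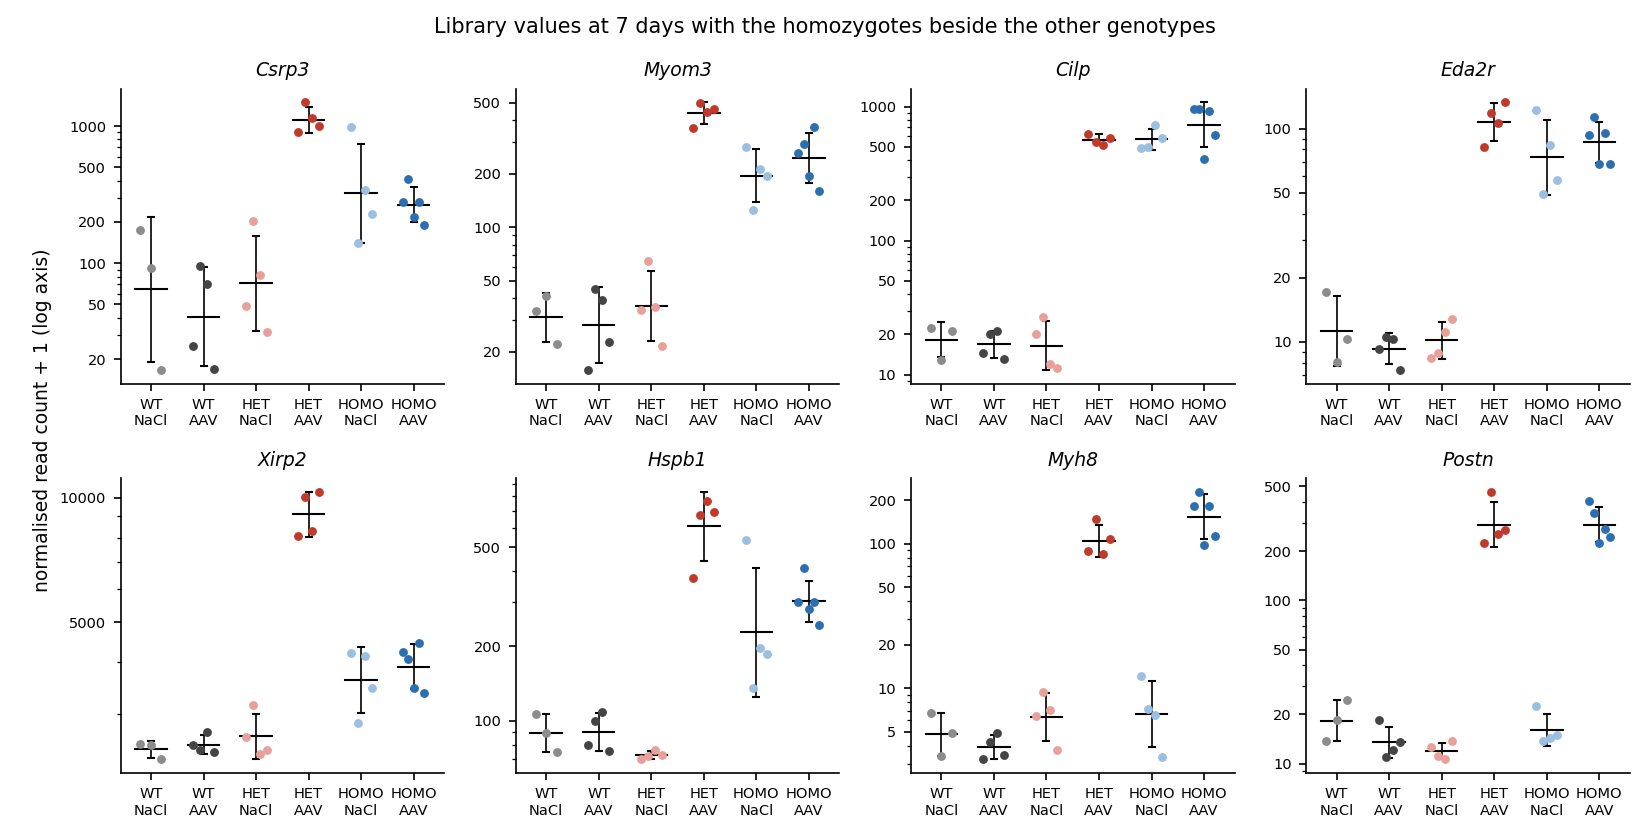
Normalised read count + 1 on a log axis for Csrp3, Myom3, Cilp, Eda2r, Xirp2, Hspb1, Myh8 and Postn in the 6 groups at 7 dpi, 1 point per library, with bars at the mean of log2 values and error bars of 1 SD on the log scale. In Cilp, Eda2r and Myom3 the homozygous saline libraries sit far above heterozygous saline, and in Postn and Myh8 both genotypes start low.

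The 4 heterozygous AAV libraries were not alike. Among the 1340 genes with a higher response, library 2 was the highest of the 4 in 653, library 4 in 395, library 3 in 236 and library 1 in 56. Among the 1286 with a lower response, library 2 was the lowest in 587, library 4 in 463, library 3 in 189 and library 1 in 47. The median log2 distance from the mean of the other 11 libraries was 0.62, 0.86, 0.74 and 0.81 for libraries 1 to 4 in the genes that rose, and -0.48, -0.7, -0.56 and -0.68 in those that fell. Library 2 had the lowest transgene level of the 4 and library 1 the second highest, and 4 libraries are too few for a test of a relation.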

How the data were processed

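Transcripts were measured by bulk RNA sequencing of tibialis anterior. Per the labels' protocols, RNA from bead-lysed muscle was extracted with TRI reagent and went into NEBNext Ultra II Directional libraries. The submitters' processing notes list RSEM, Bowtie, FastQC and limma with no versions, and genome build GRCm38/mm10. How the counting treated strand is not stated there. The authors deposited a signal of normalised read counts: each value is the reads of a gene plus 0.5, over an effective library size, scaled to CPM. Read numbers could be recovered from these steps and came out whole for 100.0% of values (within 0.02). Coordinates came from GENCODE M21, which matched 14861 of the gene identifiers.

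Differences were fitted with limma 3.58.1 (R 4.3.3) on log2(value + 1) over all 56 samples in 14 groups. The fit had an intensity trend (42 residual degrees of freedom) and Benjamini-Hochberg adjustment over all genes tested. Genes were tested if their mean over all 56 samples was at least 1. For this filter only, each library was first rescaled to the same total, as CPM. The filter left out 1853 genes. The transgene was kept out of that fit and compared by an exact permutation test of log2 values. The code was tested on simulated data. Alternatives were edgeR 4.0.16 (2603 calls on the recovered reads), DESeq2 1.42.0, limma voom, other pseudocounts, filters and scalings, a fit of the 4 groups alone, a replicate block, and each replicate left out in turn.

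The text names up to 15 of the largest rises and 15 of the largest falls among called genes with a group mean of at least 5 and a symbol that is no predicted gene, a fixed set (Cd8a, Isg15, Adgre1, Col1a1, Ppargc1a, Ttn, Csrp3, Ankrd2, Ankrd1, Cdkn1a, Myh3, Fbxo32 and Trim63), and from every list described at most 4 members, those of smallest p, or fewer for space. Other members of a list are named after their values were seen. The comparison, the 34 gene lists and the named genes were chosen with earlier results of these data known. Lists share members, among them Des, Myog, Chrng, Sln, Cryab, Eda2r and Cdkn1a, so their counts are not independent. A named gene is not reported here.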

Additional observations from a re-analysis of the deposited data

Results flagged for a closer look

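The AAV response differed between heterozygous and wild-type muscle in 2626 genes and between homozygous and heterozygous muscle in 422 genes, by the interaction term itself. Among 248 sets of a named gene and a group of 4 or 5 libraries, 13 held a library far from the others by Dixon's criterion. Chance gives about 1 in 20, or 12.4 of these sets.

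In WT AAV muscle, library 1 stood apart in Tnni1 (1.43, others 2.53 to 2.66) and Sntb1 (6.01, others 3.81 to 4.12). Library 2 stood apart in Cryab (524, others 417 to 433) and Lrtm1 (154, others 200 to 209). Library 3 was high in Casq2 (86.6, others 61.8 to 65.3), and library 4 was low in Col1a1 (72.2, others 149 to 172).

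In HET saline muscle, library 2 was high in Des (2980, others 2400 to 2440) and low in Runx1 (0.655, others 1.81 to 1.93). Library 1 was high in Gpd1 (687, others 632 to 641) and Sntb1 (8.14, others 5.43 to 5.79). In HET AAV muscle, library 1 was low in Atf3 (31.3, others 69.6 to 74.2) and high in Hlf (18.2, others 13.6 to 14.1), and library 3 was low in Tnni1 (26.3, others 31.4 to 32.1).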

How the results depend on the processing

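Of the 117 named genes that were called, 0 changed direction under any setting tried. Over all called genes, quantile normalization turned the sign of 2 in the double difference, 6 in the heterozygous response and 4 between AAV groups. The double difference called 2626 genes, and from 2260 to 3627 over the other settings that keep all libraries and the same threshold. Leaving out 1 library gave 1974 to 2811 calls, 1022 to 1397 of them higher and 952 to 1414 lower. Requiring a 2-fold difference as well left 720 (534 higher, 186 lower), 787 in the heterozygous response, 774 between AAV groups, 10 between saline groups and 161 between homozygous and heterozygous responses. Leaving out 1 library gave 4318 to 5172 calls in the heterozygous response, 4349 to 5079 between AAV groups, 0 to 71 between saline groups and 278 to 433 between homozygous and heterozygous responses. The 26 saline calls became 62 with DESeq2, 13 with edgeR, 12 with voom, 17 with no filter, 13 with no trend, 48 with the 4 groups alone and 12 after quantile normalization. DESeq2 called 7 genes in the wild-type response. The transgene difference ran from -1.65 to -1.28 over left-out libraries.

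Samples share replicate numbers, but the labels do not say that a number marks an animal or batch. The main fit treated same-numbered samples as independent. Over 7 same-numbered pairs the correlation of deviations ran from -0.133 to 0.311, 6 of them over 0.1, and 6 saline samples were closest to their own number. With the replicate block the double difference called 2260 genes (1140 higher, 1120 lower), the heterozygous response 5185, the wild-type response 0 and the homozygous minus heterozygous response 287. Of 13 mitochondrially encoded genes 7 were called with the block, and 5 named calls were lost (Atp2a1, Mylpf, Arntl, H2-Aa and Pdgfra) and 2 gained (Cd74, and the Schwann cell marker Ngfr, lower at -1.01). Of 117 called among 156 named genes, limma voom lost 20 and leaving out WT saline library 1 lost 12, the most of any alternative and any left-out library. The causes were not tested. Values of a few reads, as for Krt18 and Mymk outside HET AAV muscle and for Cd8a in every group, limit what depth can show.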
